A study of Mus musculus with 9 samples.

Results

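The genes described here are *Vim*, *Krt8*, *Krt18*, *Krt19*, *Lmna*, *Lmnb1*, *Lmnb2* and *Plec*, which encode vimentin, 3 simple epithelial keratins, the nuclear lamins and the linker protein plectin. They were chosen by name, as 8 of the 55471 genes in the count table, and all 8 had counts in every library and passed the filter on low counts in all 3 contrasts. The table covers 9 RNA-seq libraries, 3 in each of 3 groups, of mouse embryoid bodies (EBs), in which stem cells clump together and start to differentiate. WT EBs came from the parental E-14 embryonic stem cell line. KO EBs came from 1 *Tnfaip2*-/- clone of that line, made by CRISPR with a premature stop codon, so the genotype cannot be told apart from other properties of the clone. KO_PAPC EBs came from the same clone and received palmitic acid together with palmitoyl-L-carnitine (PA/PC), each at 8 μM. No WT EBs with PA/PC were analysed here. All EBs were formed in hanging drops for 3 days and then differentiated for 3 days. The methods of the study describe a medium for fibroblasts with PA/PC from drop formation onward for the treated cells, and embryonic stem cell medium during drop formation for the others. Read in that way, the medium and PA/PC cannot be told apart.

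Intermediate filaments are the rope-like part of the cytoskeleton. Their proteins share a central coiled rod and pair into dimers, which assemble side by side into filaments. Vimentin, of type III, forms filaments on its own and is typical of mesenchymal, neural progenitor and many cultured cells. Keratins assemble only as pairs of a type I and a type II chain: KRT8, of type II, pairs with KRT18 or KRT19, both of type I, in simple epithelia, and in the mouse embryo these are found early in trophectoderm and extraembryonic endoderm. Lamins, of type V, line the inside of the nuclear envelope. The B-type lamins LMNB1 and LMNB2 are present in nearly all cells, whereas A-type lamins, made from *Lmna*, are low in pluripotent cells and appear as cells differentiate. Plectin, of the plakin family, ties intermediate filaments to one another, to actin, to hemidesmosomes and to the nuclear envelope.

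Positions are of the mouse genome build GRCm38 with the GENCODE M21 annotation. *Vim* (ENSMUSG00000026728) lies on the plus strand of chromosome 2, from 13573927 to 13582826. *Krt8* (ENSMUSG00000049382, chr15:101996698-102004482, minus strand, 9 exons) and *Krt18* (ENSMUSG00000023043, chr15:102028180-102032027, plus strand, 7 exons) point away from each other and are separated by 23697 bases. *Krt19* (ENSMUSG00000020911) lies at chr11:100140810-100148665 on the minus strand and has 6 exons in its principal transcript. *Lmna* (ENSMUSG00000028063, chr3:88480147-88509956, minus strand) had 7 annotated transcripts, and *Lmnb2* (ENSMUSG00000062075, chr10:80901203-80918245, minus strand) had 4. *Lmnb1* (ENSMUSG00000024590) had 2 annotated transcripts. *Plec* (ENSMUSG00000022565, chr15:76170974-76232574, minus strand) had 22 annotated transcripts. The values are counts per gene over its exons, so they do not separate lamin A from lamin C or the plectin isoforms.

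The 250 bases before the RefSeq start site are shown for *Vim*, which changed most of the 8 genes in both contrasts with KO, and for the neighbours *Krt8* and *Krt18*, which fell together. They are written 5′ to 3′ on the strand of the gene, from RefSeq on GRCm38.p6. The *Vim* window is chr2:13574061-13574310 on the plus strand, the *Krt8* window is chr15:102004343-102004592 on the minus strand and the *Krt18* window is chr15:102027966-102028215 on the plus strand. Capitals mark a TATA box.
Vim: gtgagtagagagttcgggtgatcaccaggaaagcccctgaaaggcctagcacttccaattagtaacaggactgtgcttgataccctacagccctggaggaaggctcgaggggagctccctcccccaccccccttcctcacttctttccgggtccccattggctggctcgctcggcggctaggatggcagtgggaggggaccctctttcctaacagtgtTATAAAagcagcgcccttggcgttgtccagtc
Krt8: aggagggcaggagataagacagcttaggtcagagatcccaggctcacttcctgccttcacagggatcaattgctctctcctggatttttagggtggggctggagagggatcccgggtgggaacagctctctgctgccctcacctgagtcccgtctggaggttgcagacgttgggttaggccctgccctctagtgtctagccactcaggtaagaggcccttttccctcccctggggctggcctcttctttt
Krt18: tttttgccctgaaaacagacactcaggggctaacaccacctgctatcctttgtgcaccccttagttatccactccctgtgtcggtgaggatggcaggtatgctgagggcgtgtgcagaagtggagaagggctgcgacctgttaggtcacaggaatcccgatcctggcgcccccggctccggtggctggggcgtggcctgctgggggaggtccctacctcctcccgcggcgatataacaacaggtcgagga

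RefSeq start sites were matched for 5 of the 8 genes, with 7 windows in all. *Krt19* and *Plec* had no match, and *Lmnb1* was left out of the search. The letters searched, on both strands, were the AP-1 motif TGANTCA, the GC box GGGCGG and the TATA box TATAAA. The *Vim* window held 1 TATA box, whose first base lay 32 bases before the start site, and no other of these letters. The *Krt8* and *Krt18* windows held none of the 3 motifs, and their GC content was 58.0% and 60.4%, beside 58.4% for *Vim*. Among all 32851 windows of this length in the table, 12.4% held the TATA box, 32.7% the GC box and 6.75% the AP-1 motif. 1 of the windows of *Lmna* and 1 of those of *Lmnb2* held a GC box. Both *Lmna* windows belong to start sites inside the annotated gene, at 88503352 and 88493312, whereas its 5′ end is at 88509956. The *Lmnb2* window with the GC box lies at the 5′ end of that gene, and the other lies inside it.

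Depth was even, between 27362913 and 28914312 counts per library, and replicates of a group lay close together. *Tnfaip2*, the targeted gene, had 16, 6 and 10 counts in WT, 5, 6 and 8 in KO and 25, 14 and 16 in KO_PAPC, too few to check the labels, and a premature stop codon need not lower a transcript. Mitochondrial genes took from 1.85% to 1.87% of counts in WT, from 1.96% to 1.98% in KO and from 1.26% to 1.34% in KO_PAPC. The 8 pluripotency markers, which such young EBs still express, summed to between 3561 and 3579 CPM in WT, between 4957 and 4970 CPM in KO and between 3640 and 3743 CPM in KO_PAPC, and their part in the results was not tested. Levels are given as CPM, counts scaled by the library total. Fold changes are from the quasi-likelihood test of edgeR on all genes of a contrast, and a gene was called at a Benjamini-Hochberg adjusted p under 0.05. A call was common: 73.8% of 17355 genes were called between KO and WT, 81.8% of 17167 between KO_PAPC and KO, and 70.6% of 16655 between KO_PAPC and WT. The size of a change therefore says more than its call. Of the 8 pluripotency markers, 5 were called higher and 2 lower in KO than in WT, beside 36.8% and 37.1% of all genes. Between KO_PAPC and KO 3 were higher and 5 lower, beside 39.6% and 42.2% of all genes, so their sum hides a split. The study describes the replicates as biological, and those of KO and KO_PAPC as independent pools of EBs, from 1 clone. Which read pipeline made the WT columns could not be settled, so a difference in processing cannot be told apart from the genotype in contrasts with WT.

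The first comparison asks what differs in EBs of the *Tnfaip2*-/- clone, and the others what differs when that clone is given PA/PC. The 8 genes did not move as a block. In bulk RNA, fewer cells of a type and less RNA per cell cannot be told apart, here and in every result that follows. Between KO and WT, 8 of 8 were called, where 73.8% of all genes were: 7 were lower in KO and only *Lmnb2* was higher. Their median log2 fold change was -0.32, beside -0.0059 over all genes tested. Between KO_PAPC and KO, 7 of 8 were called, beside 81.8% of all genes, with *Vim* and *Lmnb1* higher in KO_PAPC, 5 genes lower and *Lmnb2* not called. The median was -0.35, beside -0.017 over all genes. Between KO_PAPC and WT, 8 of 8 were called, beside 70.6% of all genes, with *Vim*, *Lmnb1* and *Lmnb2* higher (34.2% of all genes) and the 3 keratins, *Lmna* and *Plec* lower (36.4% of all genes), and the median was -0.60, beside -0.017. Overlap was judged on CPM, scaled by library totals, whereas calls used the TMM size factors of edgeR. Between KO_PAPC and KO, *Lmnb2* thus did not overlap in CPM although it was not called. Levels did not overlap for 8 of 8 genes between KO and WT, 8 of 8 between KO_PAPC and KO and 7 of 8 between KO_PAPC and WT, where this held for 75.2%, 82.1% and 73% of all genes. Against a tested minimum fold change of 2, which 9.14%, 20.7% and 8.02% of all genes passed in the same order of contrasts, *Vim* and *Krt19* passed between KO and WT, *Vim* alone of the 8 between KO_PAPC and KO, and *Vim*, *Krt19* and *Lmna* between KO_PAPC and WT. KO libraries enter the first 2 contrasts, WT libraries the first and the last, and KO_PAPC libraries the last 2, so the contrasts are not independent of each other.

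**Figure D1:**
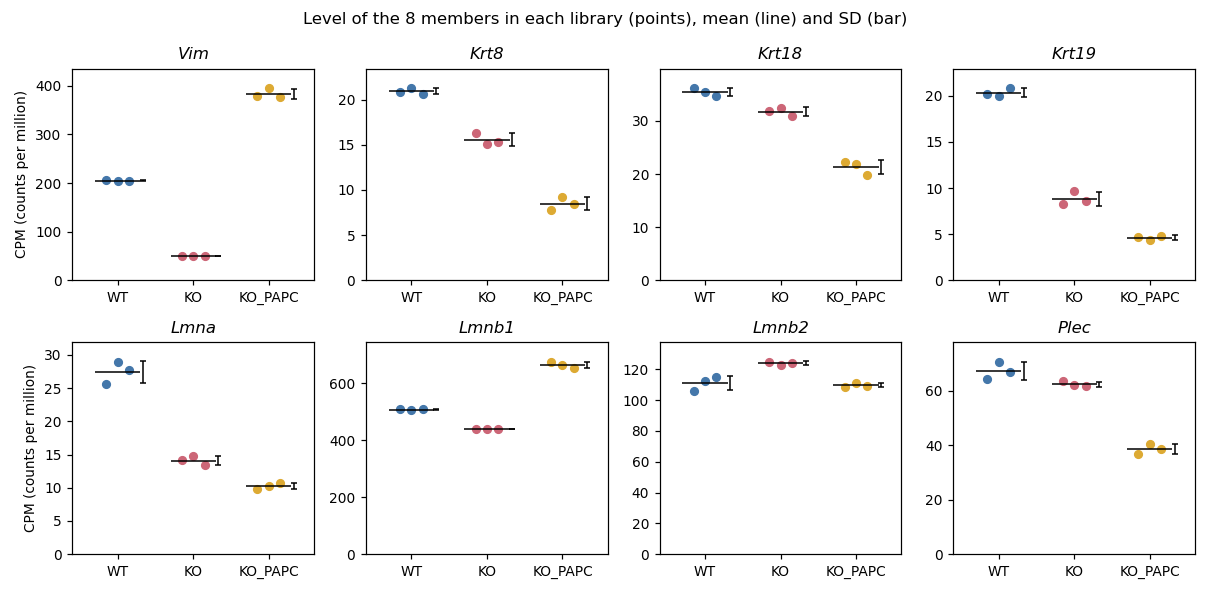
Level of each of the 8 genes in CPM (linear axes from 0) in the 9 libraries, with 1 point per library, a line at the mean of the 3 libraries of a group and a bar of 1 SD to each side. *Vim* lies near 50 CPM in KO, near 205 CPM in WT and above 375 CPM in KO_PAPC, while the 3 keratins, *Lmna* and *Plec* are lowest in KO_PAPC.

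*Vim*, the type III filament gene, moved most of the 8 in both contrasts with KO. Its level was 205.3, 204.6 and 204.4 CPM in the WT libraries, 49.8, 50.8 and 48.9 CPM in the KO libraries and 379, 396 and 377 CPM in the KO_PAPC libraries. The 3 groups did not overlap, with KO lowest, WT between and KO_PAPC highest, and the spread within a group was small beside these gaps. In KO, *Vim* fell by 2.04 ± 0.0298 (SE) on the log2 scale against WT (edgeR adjusted p = 1.05e-33), a level 4.11-fold lower. With PA/PC it rose by 3.11 ± 0.0315 against KO (edgeR adjusted p = 3.27e-41), 8.64-fold, and so lay 1.07 ± 0.0285 above WT (edgeR adjusted p = 1.49e-20), 2.10-fold. Over all alternatives of the processing the 3 values stayed between -2.05 and -2.02, between 2.94 and 3.13 and between 0.91 and 1.09 in this order, and each was called every time. No 51-base stretch of *Vim* transcripts, the read length, occurred in another annotated transcript.

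The other genes of types III and IV, which include the neurofilaments and nestin, were followed as a list of 10, all tested. In KO, 7 were lower than in WT, 1 was higher and 2 were not called, with a median log2 fold change of -0.58, where 37.1% of all genes were called lower. *Prph*, for peripherin of peripheral neurons, fell by 1.88 ± 0.0548 (SE) on the log2 scale and *Nefl*, for the light neurofilament chain, by 1.51 ± 0.0939, and *Nes*, for nestin of neural progenitors, stood at -1.004 ± 0.0549 (edgeR adjusted p = 2.66e-25, 3.93e-16 and 1.35e-17). The exception was *Ina*, for alpha-internexin, which was higher in KO by 0.44 ± 0.0372 (edgeR adjusted p = 1.03e-12) and was singled out after its values were seen. With PA/PC, 6 of the 10 rose, 1 fell and 3 were not called, with a median of 0.58, where 39.6% of all genes were called higher. *Nes* rose by 1.83 ± 0.0505, *Nefl* by 1.71 ± 0.0941 and *Prph* by 1.19 ± 0.0665 against KO (edgeR adjusted p = 5.55e-28, 1.08e-18 and 1.96e-18). These 3 genes ended at different levels against WT: *Nes* lay 0.82 ± 0.0445 above it on the log2 scale (edgeR adjusted p = 2.11e-14), and *Prph* lay at -0.69 ± 0.0514 (edgeR adjusted p = 9.91e-12). *Nefl* had 10.1 ± 0.685 CPM (SD, n = 3) in WT and 10.4 ± 0.478 CPM in KO_PAPC, groups that overlapped, and its edgeR call (adjusted p = 0.0248) was lost in DESeq2 and with library totals as size factors. Transcripts of *Nefl* shared 31.8% of their 51-base stretches with other genes. Against WT the list as a whole had 4 higher, 3 lower and 3 not called, with a median of -0.072, and with library totals 2 were higher and 5 lower. Of all 16655 genes, 5693 were called higher and 6067 lower with TMM factors, and 3616 and 8341 with library totals.

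Markers of neuroectoderm moved with *Vim*. The summed level of 8 such genes was between 144.9 and 150.0 CPM in WT, between 51.6 and 55.6 CPM in KO and between 235.0 and 237.8 CPM in KO_PAPC, and all 8 were called higher in KO_PAPC than in KO, while 6 of the 7 tested were lower in KO than in WT and 1 was higher. Among all genes, 39.6% were called higher in KO_PAPC than in KO and 37.1% lower in KO than in WT. *Nes* stands both in the neuroectoderm list and among the type IV genes. For 8 mesoderm markers the sum was between 7.87 and 9.09 CPM in WT, between 9.80 and 11.03 CPM in KO and between 21.6 and 23.9 CPM in KO_PAPC, and 3 of the 5 tested rose and 2 fell with PA/PC. The mesoderm sum rests on *T*, since the other 7 summed to between 6.03 and 7.17 CPM in WT, between 9.59 and 10.8 CPM in KO and between 7.13 and 7.41 CPM in KO_PAPC. The 8 fibroblast markers summed to at most 24.2 CPM in any library, highest in KO through *Thy1*. Without it they summed to between 11.6 and 11.8 CPM in WT, between 10.5 and 12.1 CPM in KO and between 12.1 and 13.5 CPM in KO_PAPC, and *Lum* was at 0 in all KO libraries. Of the 5 fibroblast markers tested, 4 were higher and 0 lower in KO_PAPC than in WT, and 2 were higher and 1 lower in KO_PAPC than in KO. Among all genes, 34.2% were called higher in KO_PAPC than in WT, and 39.6% higher and 42.2% lower than in KO. The part of these cell types in the *Vim* result was not tested.

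The simple keratins *Krt8*, *Krt18* and *Krt19* fell in KO and fell further with PA/PC, by unequal amounts. *Krt19*, a type I keratin of simple epithelia, was at 20.15, 19.95 and 20.86 CPM in WT, 8.30, 9.71 and 8.54 CPM in KO and 4.64, 4.39 and 4.84 CPM in KO_PAPC. *Krt8*, the type II partner, was at 20.8, 21.3 and 20.6 CPM in WT, 16.35, 15.1 and 15.4 CPM in KO and 7.81, 9.25 and 8.43 CPM in KO_PAPC. *Krt18*, the usual type I partner of *Krt8*, was at 36.2, 35.5 and 34.8 CPM in WT, 31.8, 32.5 and 30.9 CPM in KO and 22.25, 21.96 and 19.88 CPM in KO_PAPC. For each of the 3 genes every KO library lay below every WT library and every KO_PAPC library below every KO library.

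Against WT, *Krt19* fell in KO by 1.20 ± 0.0661 (SE) on the log2 scale (edgeR adjusted p = 1.67e-17), *Krt8* by 0.42 ± 0.0565 (edgeR adjusted p = 3.98e-08) and *Krt18* by 0.16 ± 0.0438 (edgeR adjusted p = 0.00143). The fall of *Krt18* was small beside those of *Krt8* and *Krt19*. In KO_PAPC, *Krt19* fell by a further 0.77 ± 0.0953, *Krt8* by 0.71 ± 0.0737 and *Krt18* by 0.40 ± 0.0522 against KO (edgeR adjusted p = 3.69e-09, 5.63e-11 and 8.6e-09). Between KO_PAPC and WT the log2 fold changes were -1.97 ± 0.0755 for *Krt19*, -1.14 ± 0.0687 for *Krt8* and -0.57 ± 0.052 for *Krt18* (edgeR adjusted p = 2.41e-17, 1.97e-13 and 5.11e-10). With PA/PC the keratins thus lay farther from their WT levels than without it, and *Vim* lay past its WT level on the other side. Of the 51-base stretches of *Krt8*, 29.4% also occur in other transcripts, and such reads were not counted where they mapped to several places. The copy *Krt8-ps* held at most 2 counts in any library, as did *Gm36026*, whose exons on the other strand overlap 5.16% of the exon bases of *Krt8*.

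**Figure D2:**
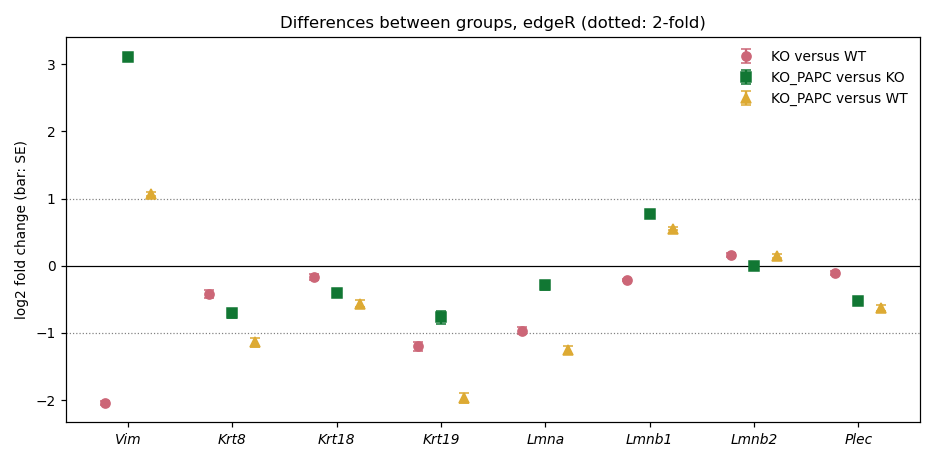
Log2 fold changes of the 8 genes in the 3 contrasts, from edgeR, with bars of 1 SE. The largest values are those of *Vim* between KO and WT (-2.04) and between KO_PAPC and KO (3.11), and of *Krt19* between KO_PAPC and WT (-1.97).

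Most of the remaining keratins that could be tested were higher in KO. The table held 50 other keratin genes, most of them of hair and stratified epithelia, and 37 of them were too low to be tested in any contrast. Their summed level was between 13.7 and 15.1 CPM in WT, between 36.8 and 38.0 CPM in KO and between 8.00 and 8.57 CPM in KO_PAPC, so that the KO libraries stood apart on the high side. *Krt42* had a level of 2.48 ± 0.186 CPM (SD, n = 3) in WT and of 11.01 ± 0.663 CPM in KO, and one of 0.517 ± 0.124 CPM with PA/PC. *Krt17*, a type I keratin of basal and stressed epithelia, had 1.37 ± 0.0311, 4.63 ± 0.450 and 0.616 ± 0.187 CPM, and *Krt23*, another type I keratin, had 1.36 ± 0.0183, 3.22 ± 0.251 and 0.0840 ± 0.0545 CPM, in the same order of groups. In all 3 genes the KO libraries were highest and the KO_PAPC libraries lowest, with no overlap between groups.

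In edgeR, *Krt42* rose in KO by 2.15 ± 0.0999 (SE) on the log2 scale against WT and fell by 4.23 ± 0.150 with PA/PC (adjusted p = 1.44e-19 and 1.53e-24). *Krt17* rose by 1.75 ± 0.141 and fell by 2.74 ± 0.184 (edgeR adjusted p = 4.07e-13 and 4.21e-16), and *Krt23* rose by 1.24 ± 0.151 (edgeR adjusted p = 6.69e-09). The KO_PAPC libraries held only 2, 1 and 4 counts of *Krt23*, against 90, 98 and 87 in KO, too few for the size of its fall to be more than rough. Of 13 other keratins tested in both contrasts with KO, 11 rose in KO against WT, beside 36.8% of all genes. The same 11 fell with PA/PC against KO, beside 42.2% of all genes. Each share covers a single contrast. The share of all genes that did both was not computed, and the KO libraries enter both contrasts. The medians over the 13 genes were 1.85 and -2.74 in the same order. Only 6 of the 13 passed the filter between KO_PAPC and WT. The other 7 passed it only in contrasts with KO, where they were high, so they had to differ and the counts are no more than a description. The count of those higher in KO also depended on the filter and tool, with 17 in DESeq2 and 20 with no filter. *Krt10*, of suprabasal epidermis and chosen after its values were seen, went the other way, falling in KO by 0.47 ± 0.117 and rising with PA/PC by 0.45 ± 0.121 (edgeR adjusted p = 0.000551 and 0.00105). *Krt14*, the basal epidermal keratin, also chosen after its values were seen, held 2, 3 and 4 counts in WT, 34, 24 and 37 in KO and 0, 0 and 1 in KO_PAPC. Together the 50 genes lay below *Krt8* alone in WT, whereas in KO their sum was above the level of each of the 3 simple keratins.

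**Figure D3:**
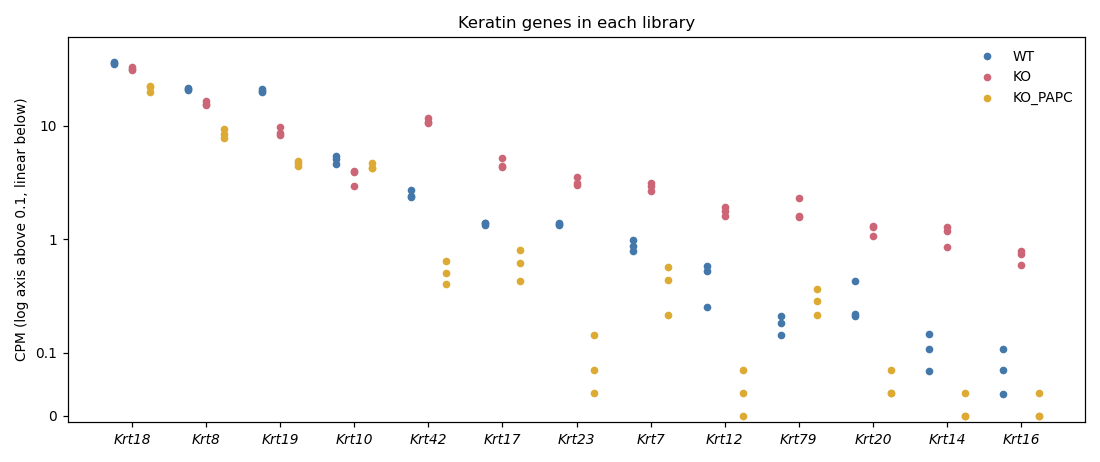
Level of the simple keratins and of other keratins in CPM in each of the 9 libraries, on an axis that is logarithmic above its small linear range near 0. *Krt8*, *Krt18* and *Krt19* step down from WT to KO to KO_PAPC, while *Krt42*, *Krt17* and *Krt23* are highest in KO and lowest in KO_PAPC.

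Most markers of endoderm moved with the simple keratins. The summed level of 14 endoderm markers was between 2061 and 2161 CPM in WT, between 1101 and 1110 CPM in KO and between 304 and 307 CPM in KO_PAPC. Of these, 12 were called lower and 2 higher in KO than in WT, and 14 of 14 were lower in KO_PAPC than in KO. Among all genes, 37.1% were called lower in KO than in WT and 42.2% lower in KO_PAPC than in KO. The order of these sums is that of *Krt8*, *Krt18*, *Krt19*, *Lmna* and *Plec*, and it was the same without *Sparc*, the highest of the 14. The 8 trophoblast markers summed to between 97.1 and 98.8 CPM in WT, between 328 and 335 CPM in KO and between 59.2 and 63.1 CPM in KO_PAPC. The order of this sum rests on *Tfap2c* alone. *Tfap2c* ranged from 53.3 to 54.6 CPM in WT and from 292 to 298 CPM in KO. In KO_PAPC it ranged from 26.6 to 28.3 CPM. The other 7 summed to between 42.5 and 45.3 CPM in WT, between 35.9 and 37.0 CPM in KO and between 31.8 and 34.7 CPM in KO_PAPC, so their sum did not rise in KO. Of 7 tested, 3 were higher and 2 lower in KO than in WT, and 2 were higher and 5 lower in KO_PAPC than in KO. Calls of a rise covered 36.8% of all genes between KO and WT, and 39.6% between KO_PAPC and KO. Besides *Tfap2c*, *Hand1* and *Krt7* rose in KO, from means of 0.777 to 4.53 CPM and 0.883 to 2.90 CPM. The 2 lower genes were *Eomes*, from 34.7 to 22.5 CPM, and *Plet1*, from 4.85 to 3.61 CPM. These 4 genes are named after their values were seen. *Krt7* stands in both the trophoblast and the keratin list. None of the endoderm or trophoblast markers was at 0 in all libraries of a group. The part of these cell types in the keratin results was not tested.

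Each of the 3 lamin genes took a course of its own. *Lmna*, the A-type gene, was at 25.7, 29.0 and 27.7 CPM in WT, 14.1, 14.7 and 13.4 CPM in KO and 9.83, 10.3 and 10.7 CPM in KO_PAPC. *Lmnb1*, of the B type and on the plus strand of chromosome 18, from 56707813 to 56753424, was at 508, 507 and 508 CPM in WT, 438.1, 438.3 and 438.4 CPM in KO and 675, 663 and 653 CPM in KO_PAPC. *Lmnb2*, also of the B type, was at 106, 112 and 115 CPM in WT, 125, 122 and 124 CPM in KO and 109, 111 and 109 CPM in KO_PAPC. *Lmna* was highest in WT and lowest in KO_PAPC, *Lmnb1* was lowest in KO and highest in KO_PAPC, and *Lmnb2* was highest in KO with overlap between WT and KO_PAPC.

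*Lmna* fell in KO by 0.96 ± 0.0582 (SE) on the log2 scale against WT (edgeR adjusted p = 1.97e-16) and by another 0.29 ± 0.0702 with PA/PC (edgeR adjusted p = 0.000331). Between KO_PAPC and WT its log2 fold change was -1.26 ± 0.0638 (edgeR adjusted p = 6.44e-15). *Lmnb1* fell in KO by 0.21 ± 0.0208 (edgeR adjusted p = 5.64e-11) and rose with PA/PC by 0.76 ± 0.0238 against KO (edgeR adjusted p = 2.48e-26), to 0.55 ± 0.0252 above WT (edgeR adjusted p = 7.93e-16). This small fall of *Lmnb1* stood far outside the spread between replicates, whose SD was 0.147 CPM in KO, where counting error alone gives an SD of 3.92 CPM. 3 values closer together than counting error are a feature of this small sample and do not make the level more precise. *Lmnb2* rose in KO by 0.16 ± 0.0305 (edgeR adjusted p = 2.58e-05), and its log2 fold change with PA/PC was -0.0079 ± 0.03 (edgeR adjusted p = 0.814).

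The place of *Lmnb2* in KO_PAPC depended on the scaling. With library totals in place of TMM size factors, the median log2 fold change over all genes moved from -0.017 to -0.18 in both contrasts with KO_PAPC. *Lmnb2* was then called lower than in KO, at -0.17 (edgeR adjusted p = 2.38e-06). Against WT it was called higher with TMM factors, by 0.15 ± 0.0343 (edgeR adjusted p = 0.000508), and lay at -0.018 with library totals. The directions of the other 7 genes were the same with TMM, RLE and library totals in all 3 contrasts.

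**Figure D4:**
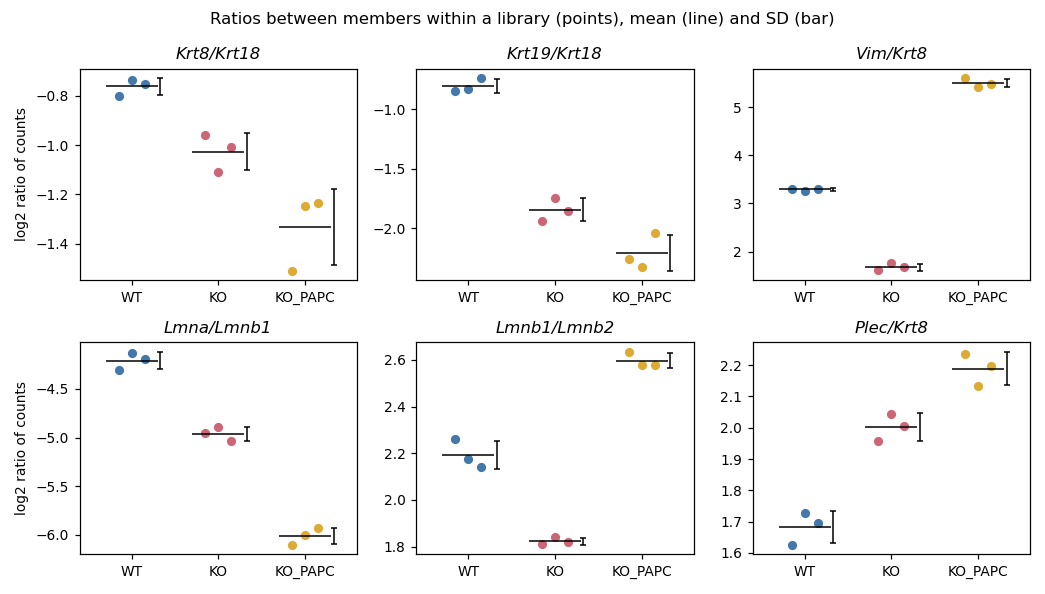
Log2 ratio of counts of member pairs within each of the 9 libraries, with 1 point per library, a line at the group mean and a bar of 1 SD to each side, on axes that do not start at 0. *Vim* over *Krt8* spans from 1.61 in a KO library to 5.60 in a KO_PAPC library, and *Lmna* over *Lmnb1* steps down from WT to KO to KO_PAPC.

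Ratios of counts within a library need no size factor, and they show the balance between the chains. The log2 ratio of *Krt8* to *Krt18*, which form the classic pair, was -0.76 ± 0.0335 (SD, n = 3) in the WT libraries and -1.03 ± 0.0768 in the KO libraries. In KO_PAPC it was -1.51, -1.25 and -1.24 in the 3 libraries (-1.33 ± 0.154), so that replicate 1 lay lowest. The ratio of *Krt19* to *Krt18*, which compete for the same partner, was -0.80 ± 0.0593, -1.85 ± 0.0974 and -2.21 ± 0.151 in this order. Among the type I keratins, *Krt19* thus fell more than *Krt18* in both steps. The log2 ratio of *Lmna* to *Lmnb1* was -4.21 ± 0.089 in WT, -4.96 ± 0.0698 in KO and -6.01 ± 0.0834 in KO_PAPC, and that of *Lmnb1* to *Lmnb2* was 2.19 ± 0.0608, 1.82 ± 0.0149 and 2.596 ± 0.0323. The log2 ratio of *Vim* to *Krt8*, the type III against the type II chain, was 3.29 ± 0.0245, 1.68 ± 0.0738 and 5.50 ± 0.0922. From KO to KO_PAPC it gained 3.82 ± 0.0682 (SE), or 14.2-fold. Finally, *Plec* over *Krt8* was 1.68 ± 0.0518, 2.00 ± 0.0443 and 2.19 ± 0.053. For none of the 18 comparisons of 6 ratios did the 2 groups overlap, and each gave the smallest p that an exact two-sided permutation test of 3 against 3 libraries allows, 0.1, which stayed 0.1 after adjustment. The test cannot reach 0.05 in this design.

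The genes around the lamins did not follow them as a group. Of 14 partners at the nuclear envelope, 7 were higher in KO than in WT and 7 lower, and the median log2 fold change was -0.0046. With PA/PC, 7 were higher, 6 lower and 1 not called against KO, with a median of 0.15, and against WT 5 were higher, 6 lower and 3 not called, with a median of -0.043. Among all genes, 36.8% were called higher and 37.1% lower between KO and WT. The shares were 39.6% and 42.2% between KO_PAPC and KO, and 34.2% and 36.4% between KO_PAPC and WT. The genes of this list with the smallest adjusted p were *Tmpo*, for the LAP2 proteins that bind lamins, *Banf1*, for the chromatin linker BAF, and *Lbr*, for the lamin B receptor. *Tmpo* fell in KO by 0.15 ± 0.0229 (SE) on the log2 scale and rose with PA/PC by 0.82 ± 0.0268, *Banf1* fell by 0.23 ± 0.0239 and rose by 0.62 ± 0.0257, and *Lbr* rose by 0.12 ± 0.028 and by a further 0.55 ± 0.0283 (edgeR adjusted p at most 0.000226). All 3 lay above WT in KO_PAPC, by 0.67 ± 0.0292, 0.39 ± 0.0267 and 0.67 ± 0.034 (edgeR adjusted p = 3.32e-16, 2.21e-12 and 6.06e-15), as *Lmnb1* did. At the tested minimum fold of 2, 0 partners were higher and 2 lower in KO_PAPC, against KO and against WT alike. That test passed 20.7% and 8.02% of all genes in this order. *Syne1* and *Syne3*, named after their values were seen, had 4.78 and 0.814 CPM in WT and 6.52 and 2.35 CPM in KO. In KO_PAPC they had 1.02 and 0.0967 CPM. Transcripts of *Banf1* shared 25.4% of their 51-base stretches with other genes and those of *Lbr* 8.37%, so their counts are less certain.

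Lamin precursors are farnesylated, trimmed and methylated before use, and 5 genes of that route were listed. In KO, 4 were called lower than WT and 1 was not called, with a median of -0.19. Among all genes, 37.1% were called lower in KO than in WT and 39.6% higher in KO_PAPC than in KO. Between KO_PAPC and WT, 34.2% of all genes were called higher and 36.4% lower. *Rce1*, for the CAAX protease, fell by 0.58 ± 0.0354 (SE) on the log2 scale, *Fntb* and *Fnta*, for the chains of farnesyltransferase, by 0.22 ± 0.0394 and 0.13 ± 0.0259, and *Icmt*, for the methyltransferase, by 0.19 ± 0.0356 (edgeR adjusted p = 2.08e-16, 6.74e-06, 3.27e-05 and 1.3e-05). *Zmpste24*, whose protease removes the end of prelamin A, stood at -0.025 ± 0.0368 (edgeR adjusted p = 0.541). With PA/PC the same 4 were called higher than KO, with log2 fold changes of 0.61 ± 0.0279 for *Fnta*, 0.52 ± 0.0379 for *Rce1*, 0.28 ± 0.0425 for *Fntb* and 0.13 ± 0.0401 for *Icmt* (edgeR adjusted p at most 0.00468), although *Icmt* lay at -0.041 with library totals as size factors. *Zmpste24* fell by 0.17 ± 0.0434 (edgeR adjusted p = 0.000544), the direction of *Lmna*. Against WT only *Fnta* was called higher, by 0.47 ± 0.0294, and only *Zmpste24* lower, at -0.20 ± 0.0445 (edgeR adjusted p = 3.19e-13 and 0.000335), but with library totals as size factors 4 of the 5 were called lower. With those totals 8341 of all 16655 genes were also called lower than WT. With a replicate block *Icmt* too was called lower than WT (-0.069, edgeR adjusted p = 0.0389), and without KO_PAPC replicate 1 *Fntb* was called higher (0.097, edgeR adjusted p = 0.0412).

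*Plec*, the linker, was slightly lower in KO and clearly lower with PA/PC. It was at 64.3, 70.6 and 66.8 CPM in WT, 63.4, 62.1 and 61.6 CPM in KO and 36.8, 40.5 and 38.7 CPM in KO_PAPC. The KO libraries lay just below the lowest WT library, and the KO_PAPC libraries far below both. The log2 fold change in KO against WT was -0.11 ± 0.0365 (SE, edgeR adjusted p = 0.00913), and without WT replicate 2 it was -0.074 and no longer called (edgeR adjusted p = 0.0859). With PA/PC *Plec* fell by 0.52 ± 0.0409 against KO (edgeR adjusted p = 3.14e-14) and lay at -0.63 ± 0.0445 against WT (edgeR adjusted p = 3.56e-12). Of its exon bases, 1.13% overlap *Parp10*.

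Most of the other plakins rose in KO and fell with PA/PC. Of 6 genes, 4 were called higher in KO against WT and none lower, with a median of 0.60 on the log2 scale, where 36.8% of all genes were called higher. *Dsp*, for desmoplakin, which anchors keratins at desmosomes, had a level of 103 ± 0.828 CPM (SD, n = 3) in KO, beside 40.5 ± 0.605 CPM in WT and 15.1 ± 0.903 CPM with PA/PC. Its log2 fold changes were 1.35 ± 0.0338 (SE) in KO against WT and -2.603 ± 0.0445 with PA/PC against KO (edgeR adjusted p = 2.69e-27 and 1.73e-34). *Ppl*, for periplakin, rose by 1.27 ± 0.09 and fell by 2.08 ± 0.113, and *Dst*, for dystonin, rose by 0.27 ± 0.0245 and fell by 0.98 ± 0.0293 (edgeR adjusted p at most 8.74e-12). With PA/PC 5 of the 6 fell against KO, with a median of -1.41, where 42.2% of all genes were called lower. The same number lay below WT, with a median of -0.76, where 36.4% of all genes were called lower. *Eppk1* and *Macf1* were not called in KO and are named here after their values were seen. *Eppk1*, for epiplakin, lay at -0.28 ± 0.144 in KO against WT (edgeR adjusted p = 0.0779), and without WT replicate 3 it was called lower, at -0.44 (edgeR adjusted p = 0.00767). *Macf1*, for a plakin that links actin and microtubules, was not called in any contrast with TMM factors and the usual filter, and its place in KO_PAPC depended on the processing. Against KO it lay at 0.049 and against WT at 0.048, but with library totals at -0.12 in both, called lower (edgeR adjusted p = 0.000125 and 0.000594). It was called higher than KO with no filter (0.073, edgeR adjusted p = 0.0196) and without KO_PAPC replicate 1 or 2 (0.060 and 0.064, edgeR adjusted p = 0.0221 and 0.0415), and higher than WT with a replicate block (edgeR adjusted p = 0.0201).

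Genes of the desmosome and hemidesmosome, where keratins are anchored, were less uniform. Of 10 tested among 11 listed, 4 were higher in KO than in WT and 3 lower, and the median log2 fold change was 0.062. Among all genes, 36.8% were called higher and 37.1% lower between KO and WT. The shares were 39.6% and 42.2% between KO_PAPC and KO, and 34.2% and 36.4% between KO_PAPC and WT. *Itgb4*, for the integrin chain that plectin binds, rose in KO by 0.67 ± 0.0611 (SE) and *Jup*, for plakoglobin, by 0.43 ± 0.0335 (edgeR adjusted p = 8.03e-12 and 1.81e-13), whereas *Dsg2*, for a desmosomal cadherin, stood at 0.072 ± 0.035 (edgeR adjusted p = 0.0625). With PA/PC *Itgb4* fell by 2.25 ± 0.0834, *Dsg2* by 1.99 ± 0.0489 and *Jup* by 0.84 ± 0.0349 against KO (edgeR adjusted p = 5.88e-24, 1.6e-29 and 2.04e-22). Against KO 6 of the 10 were lower, 3 higher and 1 not called, with a median of -0.99, and against WT 8 were lower and 2 higher, with a median of -0.70. The 3 genes higher than in KO, named after their values were seen, were the plakophilins *Pkp2* (0.36 ± 0.0441) and *Pkp4* (0.13 ± 0.0289) and the tetraspanin *Cd151* (0.21 ± 0.0378) (edgeR adjusted p at most 9.48e-05). With library totals as size factors *Pkp4* lay at -0.035 and *Cd151* at 0.046, no longer called. Over the 6 lists together, 12 genes were called higher and 27 lower between KO_PAPC and WT with TMM factors, and 8 and 36 with library totals. Of all 16655 genes tested, 5693 were called higher and 6067 lower with TMM factors, and 3616 and 8341 with library totals. The lists thus shifted in the same direction as all genes.

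**Figure D5:**
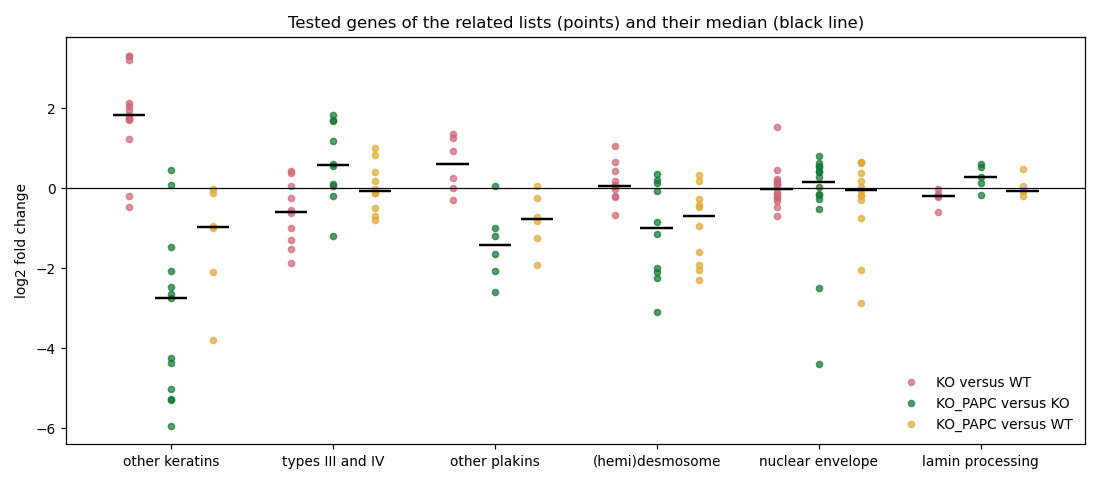
Log2 fold changes from edgeR of the tested genes of 6 related lists, without the 8 genes themselves, in the 3 contrasts, with 1 point per gene and a line at the median. The other keratins and the plakins lie mostly above 0 in KO versus WT (medians 1.85 and 0.60) and below 0 in KO_PAPC versus KO (medians -2.74 and -1.41), and the nuclear envelope partners are centred near 0 in KO versus WT (median -0.0046). Of the 13 other keratins in both contrasts with KO, 7 passed the filter only there, where they were high, so they had to differ. The keratin medians are thus no more than a description.

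Per length, in RPKM, which is CPM divided by the annotated exon length in kilobases, *Lmnb1* was the highest of the 8 genes in each group, at 224 ± 3.81 RPKM (SD, n = 3) with PA/PC, 171 ± 0.274 RPKM in WT and 148 ± 0.0497 RPKM in KO. In WT the order went on with *Vim* at 43.2 ± 0.103 RPKM, *Lmnb2* at 25.9 ± 1.09, *Krt18* at 24.7 ± 0.510, *Krt19* at 10.9 ± 0.259, *Krt8* at 10.7 ± 0.178, *Lmna* at 4.70 ± 0.285 and *Plec* at 3.71 ± 0.177. The neighbours *Lmnb2* and *Krt18*, and *Krt19* and *Krt8*, overlapped in WT, and no other neighbours did. In KO *Vim*, at 10.5 ± 0.199 RPKM, dropped below *Lmnb2* (28.9 ± 0.291) and *Krt18* (22.1 ± 0.556), and *Lmna* became the lowest at 2.41 ± 0.116 RPKM. In KO_PAPC *Vim* was back in the place after *Lmnb1*, at 80.9 ± 2.17 RPKM, and *Krt19* (2.49 ± 0.124), *Plec* (2.14 ± 0.102) and *Lmna* (1.76 ± 0.0715) ended the order. No neighbours overlapped in KO or KO_PAPC. Transcripts differ in the exons they use, so these levels depend on the annotated length of each gene.

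The genes whose levels over the 9 libraries ran closest to each member were sought among the 9790 genes whose mean reached 10 CPM, by the root mean square difference of log2 CPM profiles centred on their means. The points share libraries, so this is a description. For *Vim* the closest were *Sox11*, for a transcription factor of neural progenitors, at a difference of 0.0753 on the log2 scale, and *Fgf15*, for a growth factor, at 0.0838. For *Krt8* they were *Cdc42bpg* (0.0593) and *Fam114a1* (0.074), for *Krt18* *Man2a2* (0.0323) and *Agpat3* (0.0438), and for *Krt19* *Pth1r* (0.109) and *Cth* (0.118). For *Lmna* they were *Mt1*, for a metallothionein, at 0.0651 and *Lamb1*, for a laminin chain that is also in the endoderm list, at 0.0717. For *Lmnb1* they were *Rabggtb* (0.0153) and *Wdcp* (0.0218), for *Lmnb2* *Upf1* (0.0236) and *Smpd4* (0.0252), and for *Plec* *Zdhhc18* (0.0346) and *Plcd3* (0.0374). Among the 8 genes themselves the closest pair was *Plec* and *Krt18*, at 0.0859, ahead of *Plec* and *Krt8* at 0.197, *Krt18* and *Krt8* at 0.232 and *Lmna* and *Krt8* at 0.236. No member was among the closest genes of another.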

How the data were processed

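Per the labels and the study's methods, the deposited counts came from unstranded TruSeq libraries read once for 51 cycles, and the submitters' processing notes name STAR 2.7.2b, featureCounts 1.6.5 and the build GRCm38. Only reads with 1 place in the genome and 1 gene were counted. For a comparison of KO with WT the study also describes an earlier pipeline with another aligner. The 9 columns lie in the same table, but which pipeline made the WT columns is not settled by the sources used here. Of all columns, 0 were left unused. Symbols came from GENCODE M21, and 241 IDs had no match.

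Groups and replicate numbers were taken from the sample titles. Each contrast was fitted on its own 6 libraries with edgeR 4.0.16 in R 4.3.3 (quasi-likelihood test, TMM, filterByExpr, no covariates, Benjamini-Hochberg over all genes tested), with glmTreat for the minimum fold change of 2. The fits were checked on simulated data. No pair of replicates agreed within sampling noise in a chi-square test. Replicate numbers gave no clear pairing of the libraries (correlations of deviations between -0.0698 and 0.123). The highest values, 0.123 and 0.0684, were those of replicates 1 and 2 between KO_PAPC and WT, so a weak pairing there stays possible.

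The members and lists were chosen with earlier results of these data known. Besides the 8 genes and *Tnfaip2*, genes were named by rule: at most 3 per list with the smallest adjusted p over the 3 contrasts and a mean of at least 1 CPM, all genes of a list of 5, for each member the 2 genes closest in profile (pseudocount 0.5 CPM), and genes overlapping a member. Alternatives were DESeq2 1.42.0, RLE factors, library totals, 2 other filters, a joint fit, a replicate block, thinning, each replicate left out and the minimum fold.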

Additional observations from a re-analysis of the deposited data

How the results depend on the processing

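Counts of all genes called in either direction, of the 8 genes and of all listed genes moved by over 1.5 times with a tested minimum fold of 2, which asks for more than a difference from 0. It left 1587 genes between KO and WT, 3554 between KO_PAPC and KO and 1335 between KO_PAPC and WT, and of the 8 genes 2, 1 and 3. Of the listed genes it left 11, 4 and 0 higher in this order, and 2 lower between KO and WT and 10 lower between KO_PAPC and WT. Library totals changed the split of calls to 5317 higher and 8684 lower between KO_PAPC and KO, and to 3616 and 8341 between KO_PAPC and WT, from 6801 and 7246, and 5693 and 6067, with TMM factors. Single lists also moved: keratins higher in KO than WT went from 11 to 17 in DESeq2 and to 20 with no filter, and those lower in KO_PAPC from 11 to 22 against KO, and from 4 to 8 against WT, with no filter, and to 7 against WT in a joint fit.

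With a replicate block 12587, 13822 and 12223 genes were called in the 3 contrasts, and no call of the 8 genes changed. Without it the counts were 12813, 14047 and 11760, so the block raised the count only between KO_PAPC and WT. Under the block *Icmt* was called lower and *Macf1* higher between KO_PAPC and WT.

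Of the 8 genes only *Lmnb2* turned in sign. Between KO_PAPC and KO it lay at 0.016 with no filter, and without 1 replicate it ranged from -0.019 to 0.0095. Between KO_PAPC and WT it lay at -0.018 with library totals. Among the other named genes, values near 0 turned. Between KO and WT *Macf1* lay at -0.0019 in DESeq2, at -0.014 with no filter and from -0.011 to 0.012 without 1 replicate, *Pkp2* from -0.055 to 0.011 and *Zmpste24* from -0.042 to 0.00025 without 1 replicate. With library totals, *Icmt* (-0.041), *Macf1* (-0.12) and *Pkp4* (-0.035) turned between KO_PAPC and KO, and *Fntb* (-0.11) and *Macf1* (-0.12) between KO_PAPC and WT. *Krt10* ranged from -0.084 to 0.029 between KO_PAPC and WT without 1 replicate. The cause was not tested. Depth limits mainly the rare keratins, which had few counts outside KO.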
